A study of Homo sapiens with 8 samples.

Results

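The genes described here are 34 components of protein folding and quality control in the endoplasmic reticulum (ER): chaperones, disulfide enzymes, the IRE1-XBP1 and ATF6 branches of the unfolded protein response, and ER-associated degradation. They were taken by symbol from the 58870 gene rows of the count table. The matching used no measured value, but the list was chosen with earlier results of these data known. Of the 34, 33 had a row under the listed symbol, and VIMP was found under SELENOS, its current symbol in the RefSeq gene table. All 34 passed the filter on low counts that left 13860 genes for testing. The line is Panc 10.05, an established human cell line of pancreatic ductal adenocarcinoma, and 8 RNA sequencing libraries were made from it. The 4 control libraries are described as Panc 10.05 control. The 4 ELAPOR1 libraries are described as overexpression from an ELAPOR1 transgene, ELAPOR1 being endosome-lysosome associated apoptosis and autophagy regulator 1. Both groups share the cell line, and no other genotype, agent, dose or time is given in the labels. The vector, the promoter, whether the overexpressing cells are a clone or a pool, and whether replicates were separate cultures are not given in the sources used here, so p-values measure only the spread between these libraries, which may be technical.

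In the lumen of the ER, HSPA5 (BiP) and HSP90B1 (GRP94) hold unfolded secretory proteins, the lectins CALR and CANX hold glycoproteins, and enzymes of the protein disulfide isomerase family form and rearrange disulfide bonds. When unfolded proteins build up, the sensor IRE1 (encoded by ERN1) splices XBP1 mRNA and ATF6 is cut to release a transcription factor; both factors act on ER stress response elements of chaperone genes. Proteins that fail to fold are trimmed by EDEM proteins, passed out through the SEL1L-SYVN1 complex with derlins, extracted by VCP and degraded by the proteasome. In exocrine pancreas this system is large because acinar cells secrete digestive enzymes.

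Expression of the transgene followed the labels: KIAA1324, the row that holds ELAPOR1, had 1 to 4 counts in each control library and 5910 to 7368 in each ELAPOR1 library. Control libraries held 16558600 to 18128757 counts and ELAPOR1 libraries 13765509 to 17258166. Pearson correlations of log2 values were 0.9879 to 0.9904 within groups and 0.9769 to 0.9801 between them, and no library stood apart. All 8 epithelial carcinoma markers checked had at least 10 counts in every library, and their summed level was 12846.7 to 14199.3 CPM (counts per 1e6 counts, scaled by TMM) in control and 11921.3 to 12241.9 in ELAPOR1 libraries. Fibroblast markers summed to 3.13 to 4.38 CPM in control and 2.94 to 3.25 in ELAPOR1 libraries, with 1 of 7 (COL1A1) above 10 counts in every library and COL1A2, DCN and LUM at 0. None of 5 endothelial markers reached 10 counts in every library (1.62 to 2.13 and 0.576 to 0.998 CPM summed, CDH5 and CLDN5 at 0). Of 6 leukocyte markers only CD68 did (82.6 to 88.6 and 73.7 to 79.5 CPM summed, CD3E at 0), and of 6 acinar markers none did, 5 being at 0. The ranges of the 2 groups did not meet for the epithelial, endothelial and leukocyte sums. The part of these shifts in the results was not tested.

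Because the members include known targets of XBP1 and ATF6, the stretches that hold ER stress response elements are shown first. They come from the RefSeq promoter windows of GRCh38.p14, which run from 250 bases before to 50 after each annotated start. The ER stress response element (ERSE) was searched as CCAAT and CCACG with any 9 bases between them, ERSE-II as ATTGG and CCACG with any 1 base between them, and the short core of the ATF6 and XBP1 site as TGACGTG, each on both strands. Below, capitals mark an ERSE or ERSE-II match and every sequence reads 5′ to 3′ on the gene's own strand. The first is the whole 250 bases before the start of HSPA5, given as the longest context, and the others show the chaperone, folding, XBP1 and degradation genes whose values are described further on.
HSPA5 (chr9:125241344-125241593, minus strand): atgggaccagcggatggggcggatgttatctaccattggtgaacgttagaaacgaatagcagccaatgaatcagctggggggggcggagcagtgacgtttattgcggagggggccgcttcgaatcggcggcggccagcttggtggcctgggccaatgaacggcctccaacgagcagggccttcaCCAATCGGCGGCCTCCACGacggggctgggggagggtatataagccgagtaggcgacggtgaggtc
HSP90B1, distal element (chr12:103930211-103930239, plus strand): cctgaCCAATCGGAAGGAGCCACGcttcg
HSP90B1, proximal element (chr12:103930316-103930344, plus strand): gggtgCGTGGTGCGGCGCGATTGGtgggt
HYOU1 (chr11:119057269-119057395, minus strand): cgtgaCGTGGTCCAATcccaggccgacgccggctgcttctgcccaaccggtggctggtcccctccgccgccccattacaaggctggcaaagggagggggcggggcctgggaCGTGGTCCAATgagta
CALR (chr19:12938379-12938407, plus strand): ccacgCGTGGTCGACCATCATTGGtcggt
ERO1B (chr1:236282178-236282206, minus strand): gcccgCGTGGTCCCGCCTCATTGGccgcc
CRELD2 (chr22:49918549-49918577, plus strand): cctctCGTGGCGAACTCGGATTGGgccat
XBP1 (chr22:28800598-28800626, minus strand): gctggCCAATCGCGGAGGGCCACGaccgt
HERPUD1 (chr16:56932020-56932040, plus strand): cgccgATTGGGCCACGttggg
CANX (chr5:179698773-179698801, plus strand): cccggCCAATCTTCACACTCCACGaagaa
PDIA6 (chr2:10812848-10812876, minus strand): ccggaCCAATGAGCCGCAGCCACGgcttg
SDF2L1 (chr22:21642109-21642129, plus strand): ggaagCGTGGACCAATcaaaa

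The exact match in HSPA5 lay at -66 to -48 from the start and reads in the direction of the gene. Only exact half-sites were counted, so variants of the elements are not marked in these stretches. HSP90B1 held an ERSE at -194 to -176 and another, on the opposite strand, at -89 to -71. HYOU1 held 2 matches to ERSE-II on the opposite strand, at -185 to -175 and at -79 to -69, and its TGACGTG match at -188 to -182 overlaps the first of them. The XBP1 element lay at -52 to -34, in the direction of the gene. That of ERO1B lay at -243 to -225, on the opposite strand. In GENCODE 29 the HSP90B1 and CANX stretches lie in UTR bases of exons of the same gene. The distal HSP90B1 stretch also meets an exon of another gene, TTC41P. The stretches of CRELD2 and PDIA6 lie in introns of their own gene, and the others outside the annotated gene. The CANX stretch recurs in windows of other CANX starts, in one of them at -9 to 10, and that of PDIA6 belongs to the second of its starts.

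Of the 34 members, 31 had a RefSeq window; SEC24D, PDIA3 and DERL1 did not. An ERSE was present in 8 of the 31 (25.8%), against 25 of 27305 genes with a window (0.0916%). ERSE-II was present in 3 (9.68%), against 19 genes (0.0696%). The TGACGTG core was present in 2, HYOU1 and VCP (6.45%), against 654 genes (2.4%). Elements of this family were first described in chaperone promoters, so their presence in these members is background and not a result of the libraries.

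With ELAPOR1 overexpression most of the ER folding genes were modestly lower. By the edgeR quasi-likelihood test with Benjamini-Hochberg adjustment over all 13860 genes, 22 of 34 members were called lower (64.7%), 4 higher (11.8%) and 8 not called at an adjusted p of 0.05. Among all tested genes 22.1% were called lower and 22.6% higher. The counts by role given further on rest on 2 to 10 genes each and are to be read beside these shares. As the list was chosen with earlier results of these data known, the contrast of these shares is a description. Calls are common in these data, 44.7% of tested genes in either direction, and the members are abundant genes. Among the 3313 tested genes at or above the members' median level, 64.3% were called, 28.2% lower and 36.1% higher. The median log2 fold change of the members was -0.16 (range -0.94 to 0.42), against 0.000875 over all tested genes, whose interquartile range ran from -0.18 to 0.17. CPM did not overlap between the groups for 26 members, against 39.2% of tested genes. The changes were small: 24 of the 26 called members changed by less than 1.5-fold, and the median size of a called member's log2 change was 0.25, against 0.28 over all called genes. As the libraries are bulk RNA, a change in every cell and a change in the number of cells expressing a gene cannot be told apart.

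**Figure D1:**
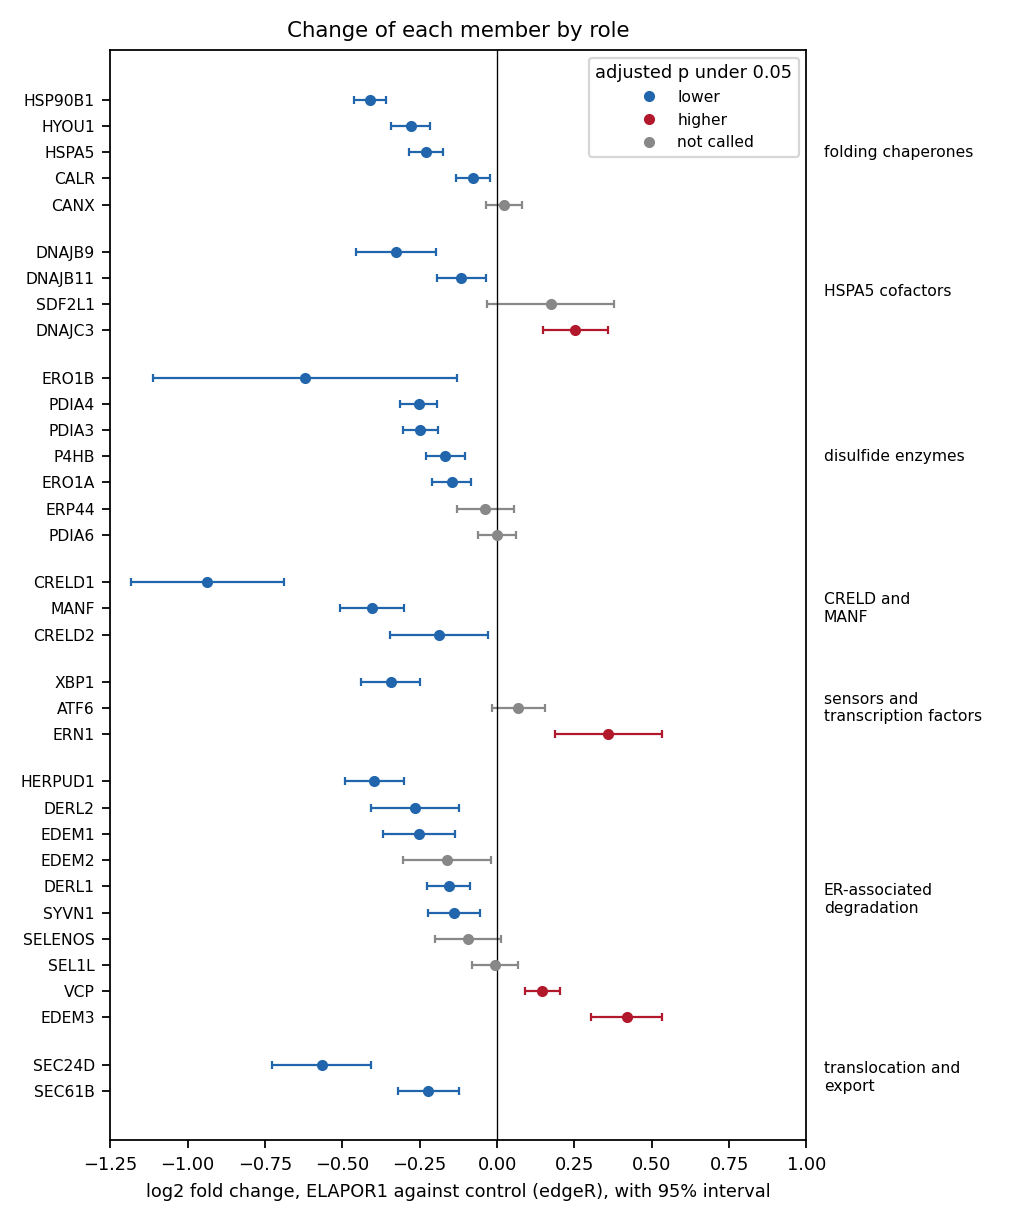
Log2 fold change of ELAPOR1 against control for each of the 34 members, ordered by role, from the edgeR fit; points are estimates, bars 95% intervals, and colour gives the call. CRELD1 (-0.94) lies farthest to the left and EDEM3 (0.42) farthest to the right, and 26 of 34 points lie left of 0.

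The 34 members together took 0.789, 0.792, 0.789 and 0.798% of all counts in control libraries 1 to 4 and 0.72, 0.723, 0.72 and 0.722% in ELAPOR1 libraries 1 to 4. The groups did not overlap, with means of 0.792 ± 0.00414% and 0.721 ± 0.00152% (SD, n = 4 each). Most of that share belonged to the 5 folding chaperones, at 0.411 ± 0.00208% in control and 0.362 ± 0.00179% in ELAPOR1 libraries. The 7 disulfide enzymes took 0.21 ± 0.00392% and 0.189 ± 0.0016%. The 10 degradation genes took 0.118 ± 0.00132% and 0.121 ± 0.000841%, ranges of 0.117 to 0.12% and 0.12 to 0.122% that meet. Within them VCP, which is higher, took 0.056 ± 0.00158% and 0.0629 ± 0.000418%. The other 9, of which 5 were called lower and 1 higher, took 0.0621 ± 0.000532% and 0.0583 ± 0.000677%.

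Of the 5 folding chaperones, 4 fell and CANX did not pass the test; the group's median log2 fold change was -0.23. HSP90B1, the ER form of HSP90 (chr12:103930107-103953645 on GRCh38, plus strand), stood at 1285.7, 1282.2, 1265 and 1280.2 CPM in control and at 969.9, 957.8, 963.3 and 953.6 CPM in ELAPOR1 libraries. Every ELAPOR1 library lay below every control library by a gap many times the spread within either group. The mean went from 1278.3 ± 9.16 to 961.2 ± 7.07 CPM (SD, n = 4 each), a fall of 24.8%. The log2 fold change was -0.41 (SE 0.0251, adjusted p = 2.8e-15 by edgeR).

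HSPA5, the HSP70 of the ER that also holds the stress sensors inactive (chr9:125234853-125241330, minus strand), stood at 1002, 1024.5, 1002.9 and 1029.2 CPM in control and at 865.8, 895.4, 830.6 and 867.2 CPM in ELAPOR1 libraries. The highest ELAPOR1 library was below the lowest control library. Its log2 fold change was -0.23 (SE 0.0272, adjusted p = 1.4e-08 by edgeR), and the mean went from 1014.6 ± 14.2 to 864.8 ± 26.5 CPM. HYOU1, the large HSP70-type chaperone that exchanges nucleotide for HSPA5 (chr11:119044189-119057202, minus strand), stood at 325.8, 331.7, 314.5 and 317.1 CPM in control and at 258.9, 267.1, 259.3 and 276.5 CPM in ELAPOR1 libraries. The groups were again separate, with a log2 fold change of -0.28 (SE 0.0308, adjusted p = 3.1e-09 by edgeR).

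The lectin chaperones moved less. CALR, the soluble lectin, went from a mean of 693.2 to 656.7 CPM and was called lower, at a log2 fold change of -0.08 (SE 0.0273, adjusted p = 0.0193 by edgeR). That call is fragile: it was lost without control library 3 (adjusted p = 0.0654), without ELAPOR1 library 1 (0.0664) or 2 (0.0528), with scaling by total counts (0.0866) and after removal of GC and length trends (0.112), all by edgeR. CANX, its membrane-bound relative, had means of 832.7 and 846.4 CPM and a log2 fold change of 0.02 (95% interval -0.03 to 0.08, adjusted p = 0.538 by edgeR). Ratios of counts within a library are free of scaling between libraries and are given as a description. HSP90B1 over CALR was 1.85 ± 0.057 (SD over 4 libraries) in control against 1.46 ± 0.0224 with ELAPOR1, and HSPA5 over CANX was 1.22 ± 0.0544 against 1.02 ± 0.056.

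**Figure D2:**
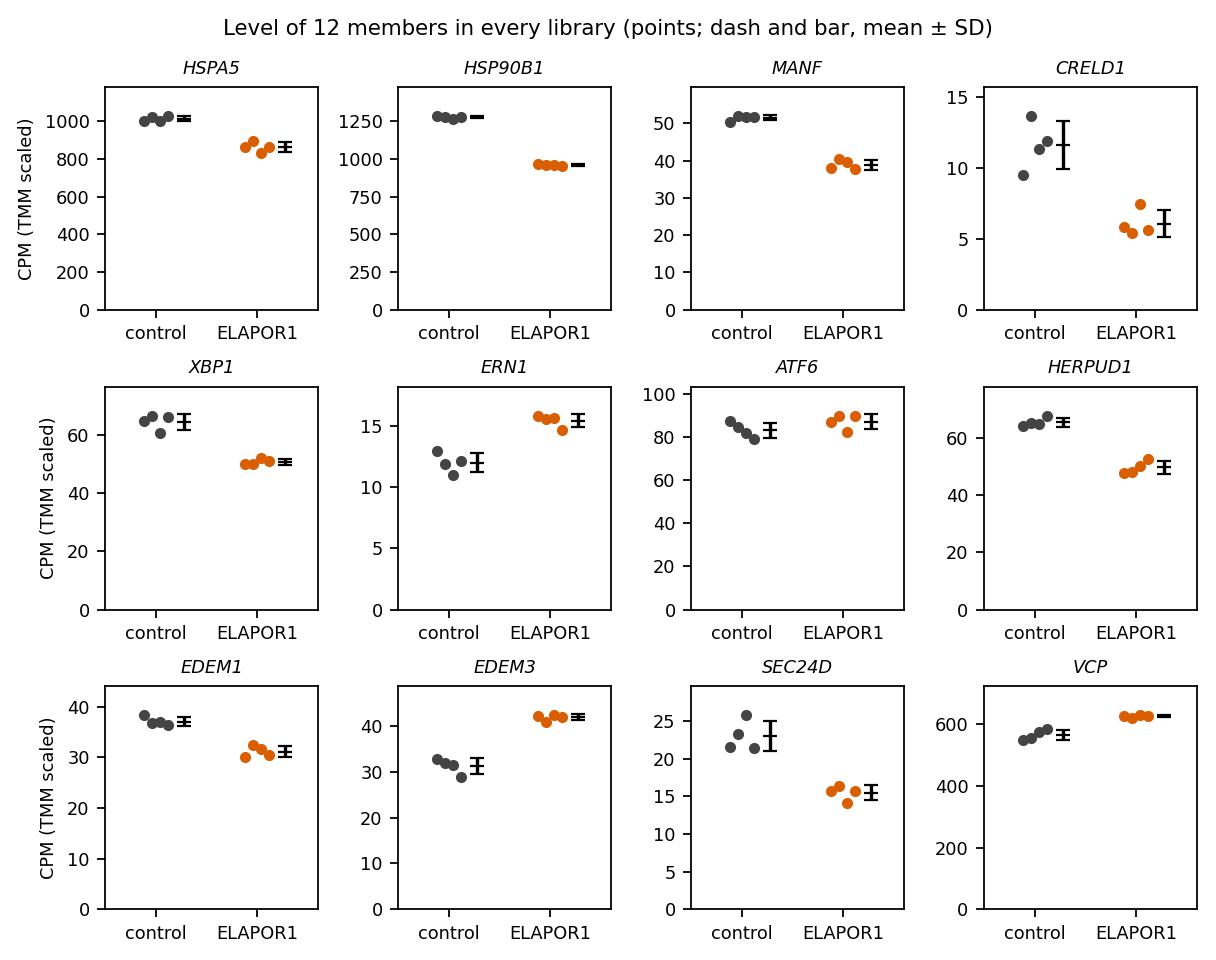
CPM in each of the 8 libraries for 12 of the members described by library, 1 panel per gene; each point is a library, the dash and bar beside the points are the group mean ± SD, and each axis starts at 0. ATF6 is the member shown here whose control and ELAPOR1 points overlap; HSP90B1 falls from about 1278.3 to 961.2 CPM and EDEM3 rises from 31.3 to 41.9.

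Compared per kilobase of the union of annotated exons, the order of the 3 highest members changed. That union can be longer than the transcript expressed, so the order between genes depends on it. In CPM, HSP90B1 was above HSPA5 and HSPA5 above CALR in both groups (1278.3, 1014.6 and 693.2 in control, 961.2, 864.8 and 656.7 with ELAPOR1). In control libraries HSP90B1 (272.3 ± 1.95 CPM per kb) was above HSPA5 (259.6 ± 3.64), and CALR (255.4 ± 6.76) did not stand clear of HSPA5, with ranges of 247.6 to 263.1 and 256.4 to 263.3. In ELAPOR1 libraries the order was CALR (242.0 ± 2.25), HSPA5 (221.3 ± 6.79) and HSP90B1 (204.7 ± 1.51), and none of these ranges met. CANX held rank 4 in both groups, at 133.6 ± 4.42 and 135.7 ± 3.71 CPM per kb. VCP went from rank 8 (103.9 ± 2.98) to rank 5 (115.0 ± 0.685). The least abundant member was ERO1B, at 0.435 ± 0.0088 and 0.282 ± 0.0641 CPM per kb.

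The 4 cofactors of HSPA5 did not move as a group, with 2 lower, 1 higher and 1 not called. DNAJB9 (ERdj4, chr7:108569568-108574850), a J-domain partner of HSPA5 and a well-known XBP1 target, stood at 31.21, 29.62, 29.61 and 29.26 CPM in control and at 24.98, 23.29, 24.62 and 22.73 CPM in ELAPOR1 libraries. All ELAPOR1 libraries were lower, with a log2 fold change of -0.33 (SE 0.0635, adjusted p = 7.4e-05 by edgeR). DNAJC3 (p58IPK, chr13:95677139-95794989), a J-domain cochaperone also known as an inhibitor of the kinase PERK, went the other way. It stood at 41.13, 42.01, 38.66 and 38.41 CPM in control and at 46.65, 47.9, 48.02 and 48.45 CPM in ELAPOR1 libraries. These groups were separate as well, with a log2 fold change of 0.25 (SE 0.0516, adjusted p = 1.3e-04 by edgeR). Counts of DNAJC3 over DNAJB9 were 1.34 ± 0.0534 in control and 2.0 ± 0.117 in ELAPOR1 libraries.

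DNAJB11 (ERdj3), a J-domain partner that binds substrates, went from 129.5 to 119.6 CPM (log2 fold change -0.12, adjusted p = 0.0149 by edgeR). This call was lost without ELAPOR1 library 4 (-0.08, adjusted p = 0.118 by edgeR). SDF2L1, which works with DNAJB11, had means of 11.3 ± 1.83 and 12.7 ± 0.65 CPM (SD, n = 4 each) and a log2 fold change of 0.17 (95% interval -0.03 to 0.38, adjusted p = 0.168 by edgeR). It was the most variable member among control libraries, with a coefficient of variation of 16.2%. It was called higher without control library 4 (0.285, adjusted p = 0.0206 by edgeR) and after removal of GC and length trends (0.35, adjusted p = 0.00236).

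Of the 7 disulfide enzymes, 5 fell, none rose, and PDIA6 and ERP44 did not pass the test; the median log2 fold change was -0.17. PDIA4 (ERp72, chr7:149003062-149028641), an isomerase of the ER lumen, stood at 355.3, 375.5, 359.3 and 354.7 CPM in control and at 304.9, 297.1, 302.2 and 307.7 CPM in ELAPOR1 libraries. The groups did not overlap, and the log2 fold change was -0.25 (SE 0.0294, adjusted p = 9.7e-09 by edgeR). PDIA3 (ERp57), which works with CALR and CANX on glycoproteins, went from 556.7 to 468.5 CPM (log2 fold change -0.25, adjusted p = 3.7e-09 by edgeR). P4HB, the founding isomerase of the family and a subunit of prolyl 4-hydroxylase, went from 609.9 to 543.1 CPM (-0.17, adjusted p = 3.9e-05 by edgeR).

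The oxidases that recharge these isomerases were also lower. ERO1A went from 229.4 to 207.2 CPM (log2 fold change -0.15, adjusted p = 2.4e-04 by edgeR). ERO1B, its scarce relative known from secretory pancreas, had 43, 40, 38 and 38 counts in control and 32, 17, 21 and 25 in ELAPOR1 libraries. In CPM these are 2.384, 2.36, 2.277 and 2.317 against 1.964, 1.131, 1.512 and 1.442, and the groups did not meet. Its log2 fold change of -0.62 (SE 0.241, adjusted p = 0.0353 by edgeR) was called by a narrow margin: the call was lost in 9 of 17 alternatives (adjusted p 0.0534 to 0.108), among them leaving out any single library other than ELAPOR1 library 1.

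PDIA6, a relative of PDIA4, had equal means of 268.6 CPM and a log2 fold change of 0.00 (95% interval -0.06 to 0.06, adjusted p = 0.995 by edgeR). ERP44, which retains ERO1 enzymes in the early secretory pathway, had means of 90.9 and 88.6 CPM (-0.04, interval -0.13 to 0.05, adjusted p = 0.525 by edgeR). Counts of PDIA4 over PDIA6 in the same library were 1.34 ± 0.0353 (SD over 4 libraries) in control against 1.13 ± 0.0289 with ELAPOR1.

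The 3 genes CRELD1, CRELD2 and MANF were all called lower, with a median log2 fold change of -0.40. CRELD1 (chr3:9933822-9945413), a membrane protein with EGF-like domains, stood at 9.535, 13.69, 11.39 and 11.89 CPM in control and at 5.831, 5.389, 7.487 and 5.653 CPM in ELAPOR1 libraries. It is scarce and varied among controls, yet the groups were separate. Its mean went from 11.6 ± 1.71 to 6.09 ± 0.949 CPM, a fall of 47.6%. The log2 fold change was -0.94 (SE 0.122, 95% interval -1.18 to -0.69, adjusted p = 9.3e-08 by edgeR). It was the only member past the edgeR test against a 1.5-fold change (adjusted p = 0.0463), which 0.657% of all tested genes passed downwards and 1.55% in either direction.

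MANF (chr3:51385047-51389397), a small ER protein that binds HSPA5 and is secreted under stress, stood at 50.45, 51.93, 51.72 and 51.58 CPM in control and at 37.87, 40.45, 39.52 and 37.67 CPM in ELAPOR1 libraries. Every ELAPOR1 library was lower, with a log2 fold change of -0.40 (SE 0.0503, adjusted p = 3.9e-08 by edgeR). CRELD2, an ER-resident relative of CRELD1 that is known to be induced by ER stress, went from 19.0 ± 1.54 to 16.7 ± 0.488 CPM (log2 fold change -0.19, adjusted p = 0.0467 by edgeR). The CRELD2 call was lost in 12 of 17 alternatives (edgeR, DESeq2 or limma adjusted p 0.0532 to 0.156), among them without control library 2 or 4 and without any 1 of the 4 ELAPOR1 libraries.

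The sensors and transcription factors went in different directions. XBP1 (chr22:28794555-28800597, minus strand), the transcription factor made after IRE1 splices its mRNA, stood at 64.64, 66.44, 60.41 and 65.96 CPM in control and at 49.96, 49.83, 52.05 and 50.99 CPM in ELAPOR1 libraries. The groups did not overlap, and the mean went from 64.4 ± 2.74 to 50.7 ± 1.03 CPM (log2 fold change -0.34, SE 0.0469, adjusted p = 2.2e-07 by edgeR). Gene counts pool the spliced and unspliced forms of XBP1, so they do not show how much of it was spliced.

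ERN1, which encodes IRE1 (chr17:64039142-64130819, minus strand), rose. It stood at 12.97, 11.92, 11.03 and 12.13 CPM in control and at 15.84, 15.57, 15.69 and 14.65 CPM in ELAPOR1 libraries, with no overlap. The log2 fold change was 0.36 (SE 0.0855, adjusted p = 8.0e-04 by edgeR). Counts of ERN1 over XBP1 were 0.201, 0.179, 0.183 and 0.184 in control and 0.317, 0.312, 0.302 and 0.287 in ELAPOR1 libraries, so the sensor's mRNA stood higher against that of its target in every ELAPOR1 library. ATF6, the sensor that is cut in the Golgi, stood at 87.31, 84.44, 81.69 and 79.26 CPM in control and at 86.91, 89.89, 82.21 and 89.81 CPM in ELAPOR1 libraries. These groups overlap, and the log2 fold change was 0.07 (95% interval -0.02 to 0.16, adjusted p = 0.195 by edgeR).

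**Figure D3:**
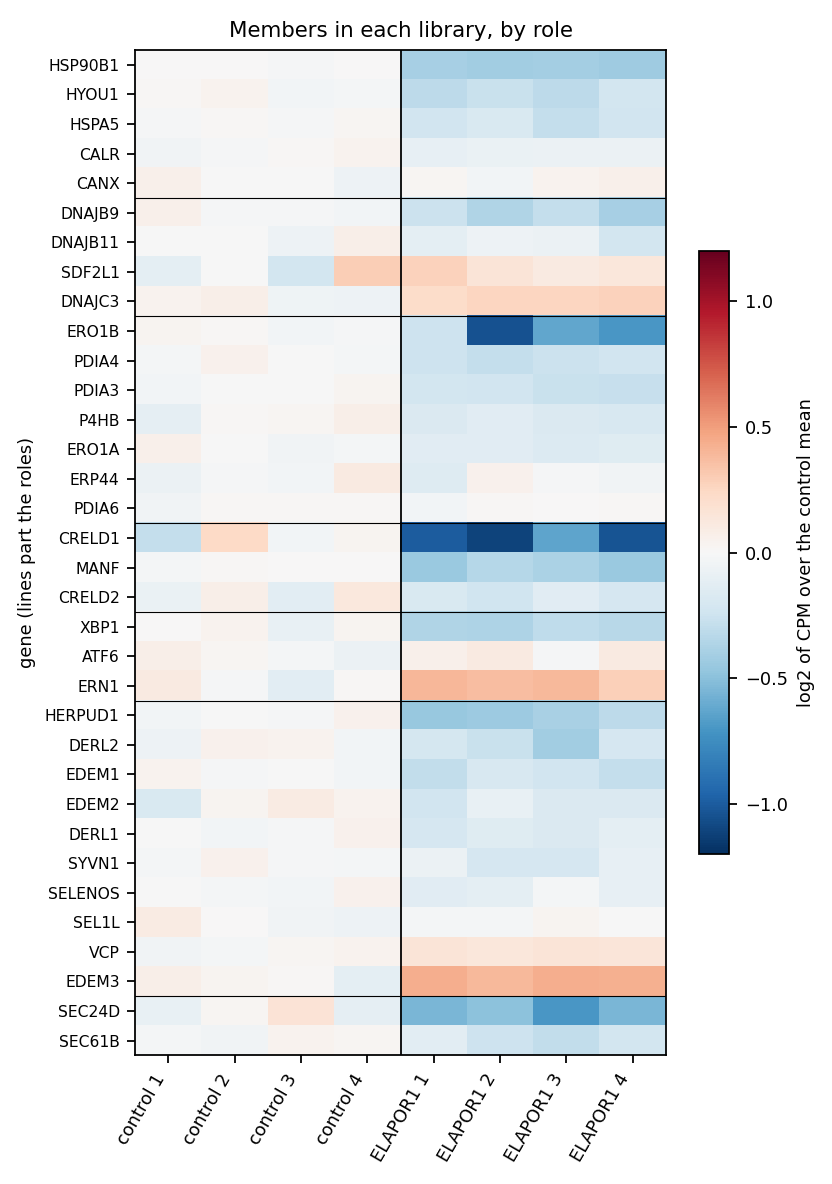
Log2 CPM of each member in each library minus that member's mean over the control libraries, with members in rows by role and libraries in columns. The 4 ELAPOR1 columns are lower for most chaperone and disulfide rows and higher for ERN1, DNAJC3, EDEM3 and VCP, and the columns within a group resemble each other.

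Among the 10 genes of ER-associated degradation, 5 were called lower, 2 higher and 3 not called, with a median log2 fold change of -0.15. HERPUD1 (chr16:56932048-56944863), a membrane protein that assembles the degradation complex and is strongly stress-induced, stood at 64.31, 65.38, 64.97 and 67.92 CPM in control and at 47.82, 48.37, 50.25 and 52.84 CPM in ELAPOR1 libraries. The groups did not overlap, and the log2 fold change was -0.40 (SE 0.0471, adjusted p = 1.5e-08 by edgeR). Its neighbourhood moved the other way: over the 20 nearest genes at or above 5 CPM the median was 0.185. For the members as a whole such neighbour medians ran from -0.11 to that value.

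The 3 EDEM proteins recognise and trim mannose on misfolded glycoproteins, and their genes diverged. EDEM3 (chr1:184690231-184754913) stood at 32.87, 31.98, 31.58 and 28.84 CPM in control and at 42.29, 40.92, 42.33 and 42.05 CPM in ELAPOR1 libraries. Its estimated rise was the largest among the members, 33.8% or a log2 fold change of 0.42 (SE 0.0566, adjusted p = 1.9e-07 by edgeR), with no overlap. EDEM1 stood at 38.25, 36.76, 36.92 and 36.27 CPM in control and at 30.14, 32.4, 31.6 and 30.4 CPM in ELAPOR1 libraries, lower in each (log2 fold change -0.25, SE 0.0569, adjusted p = 4.3e-04 by edgeR).

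Counts of EDEM3 over EDEM1 were 0.859, 0.87, 0.856 and 0.795 in control and 1.4, 1.26, 1.34 and 1.38 in ELAPOR1 libraries, so the ratio was higher in each of the 4 than in any control library. EDEM2, which starts the trimming, went from 26.8 to 23.9 CPM without passing the test (-0.16, 95% interval -0.30 to -0.02, adjusted p = 0.0564 by edgeR). It was called lower without control library 1 (-0.23, adjusted p = 0.00641 by edgeR), without ELAPOR1 library 2 (-0.19, 0.049) and with upper-quartile scaling (-0.17, 0.0462).

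VCP (p97, chr9:35056064-35073249), the ATPase that pulls substrates out of the membrane and also serves many other cellular processes, was higher. It stood at 548.4, 554.4, 573.7 and 583 CPM in control and at 627.5, 619.8, 627.8 and 625.5 CPM in ELAPOR1 libraries. The groups were separate, with a log2 fold change of 0.15 (SE 0.0277, adjusted p = 4.8e-05 by edgeR). At the core of the complex SYVN1 was called and SEL1L was not, and the difference between them was not tested. SYVN1 (HRD1), the ubiquitin ligase of the complex, was called lower, from 90.0 to 81.6 CPM (-0.14, adjusted p = 0.00631 by edgeR). Its exons overlap those of FAU and MRPL49 and its estimated counts are not whole, so reads may have been split between genes. SEL1L, the partner of SYVN1, had means of 142.7 and 142.2 CPM (-0.01, 95% interval -0.08 to 0.07, adjusted p = 0.91 by edgeR).

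The derlins, membrane proteins of the exit channel, both fell. DERL1 went from 163.5 to 146.6 CPM (log2 fold change -0.16, adjusted p = 2.8e-04 by edgeR) and DERL2 from 25.5 to 21.1 CPM (-0.27, adjusted p = 0.00199 by edgeR). SELENOS (VIMP), the selenoprotein that recruits VCP to derlins, had means of 44.1 and 41.3 CPM and did not pass the test (-0.09, 95% interval -0.20 to 0.01, adjusted p = 0.143 by edgeR).

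Both members of the translocation and export group were called lower, but none of the other SEC61 and SEC24 genes compared was. SEC61A1 (log2 fold change 0.10, adjusted p = 0.00392 by edgeR) and SEC24C (0.11, adjusted p = 0.00415 by edgeR) were called higher. SEC61G (-0.06, adjusted p = 0.476 by edgeR), SEC24A (-0.10, 0.0778) and SEC24B (0.01, 0.902) were not called. SEC24D (chr4:118722823-118838683), a cargo-binding subunit of the COPII coat, stood at 21.62, 23.37, 25.77 and 21.4 CPM in control and at 15.71, 16.43, 14.18 and 15.75 CPM in ELAPOR1 libraries. The groups were clearly apart, with a fall of 32.6% and a log2 fold change of -0.57 (SE 0.0784, adjusted p = 2.9e-07 by edgeR). SEC61B (chr9:99222064-99230615), a small subunit of the translocation channel, stood at 59.6, 58.65, 62.09 and 61.64 CPM in control and at 55.24, 50.77, 49.24 and 51.97 CPM in ELAPOR1 libraries. It was lower in all 4 (log2 fold change -0.22, SE 0.0478, adjusted p = 2.6e-04 by edgeR), but after removal of GC and length trends the value was -0.10 and the call was lost (adjusted p = 0.0584 by edgeR).

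The response elements printed above were then set beside the fold changes. Of the 19 members with a window that were called lower, 8 held an ERSE or ERSE-II (42.1%): HSPA5, HSP90B1, HYOU1, CALR, ERO1B, CRELD2, XBP1 and HERPUD1. Of the 8 that were not called, 3 held one (37.5%), CANX, SDF2L1 and PDIA6, and of the 4 called higher none did. Among all 31 members with a window the share was 35.5%. The split also rests on fragile calls: those of CALR, ERO1B and CRELD2 were lost in 5, 9 and 12 of 17 alternatives. Over the 11 members with an element the median log2 fold change was -0.23, and over the 20 members with a window and no element it was -0.14; of the latter 11 were called lower, 4 higher and 5 not called. These counts are small and describe the members without a test. They rest on exact matches, so a member listed without an element may hold a variant of it.

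Elements were also found in 33 genes outside the member list, of which 26 had a row and 19 were tested. Of these 7 were called lower, 5 higher and 7 not called, with a median of -0.16; over all tested genes 22.1% were called lower and 22.6% higher. Of those called lower, the largest falls were in CAMTA1 (log2 fold change -0.454), TMEM120A (-0.450) and ZNF143 (-0.435). SERP1, which guards newly made membrane proteins at the translocon, went from 150.0 to 132.0 CPM (log2 fold change -0.185, adjusted p = 3.3e-05 by edgeR). NUCB1, a calcium-binding protein of the Golgi, went from 166.5 to 143.8 CPM (-0.21, adjusted p = 4.3e-06 by edgeR). SHCBP1, with an ERSE-II match, went up from 75.6 to 101.3 CPM (0.42, adjusted p = 6.3e-11 by edgeR), so a match in the window did not go with one direction.

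**Figure D4:**
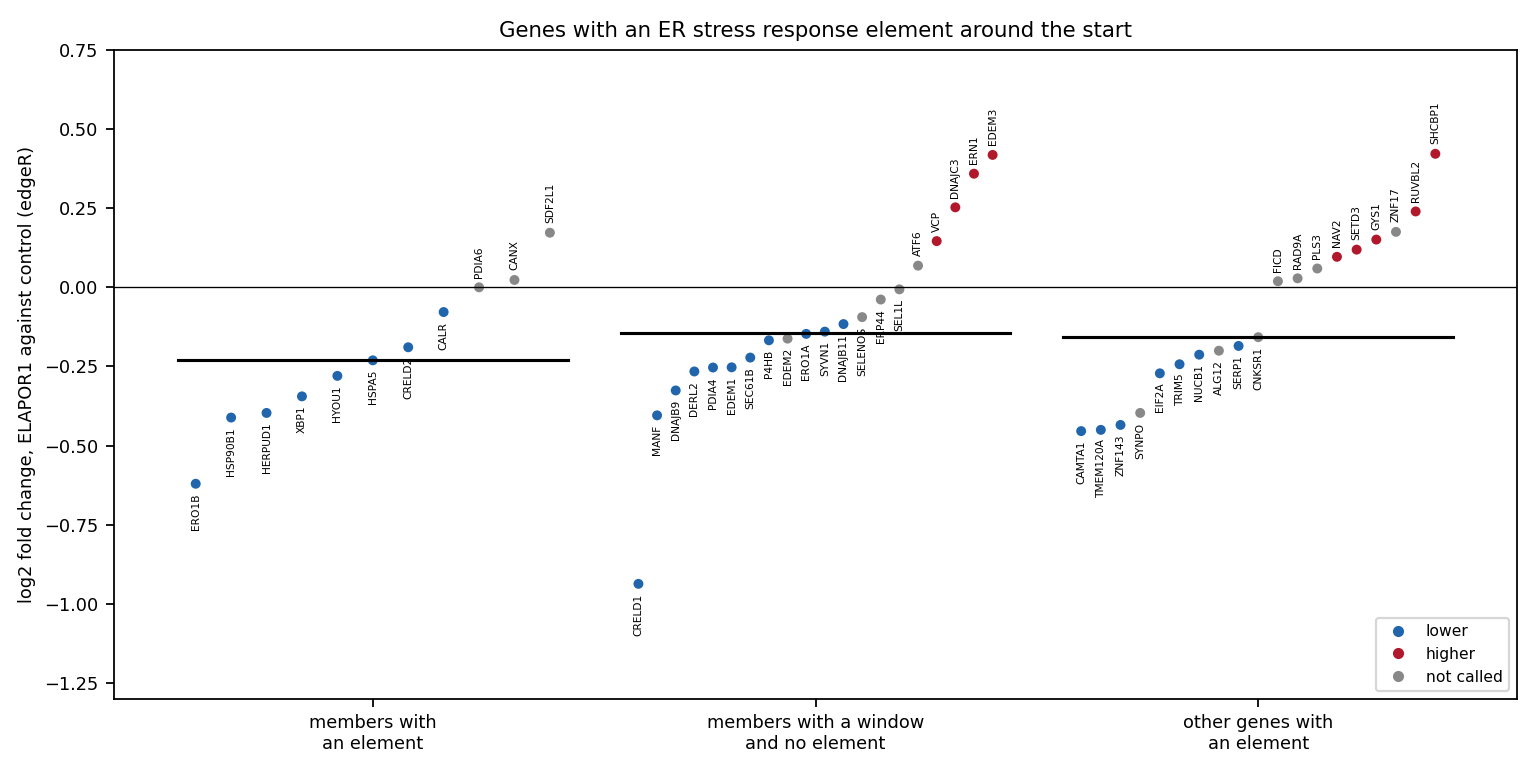
Log2 fold change (edgeR) of members with an ERSE or ERSE-II in the promoter window, of members with a window and none, and of other tested genes with an element; each point is a gene and the bar is the group median. The medians are -0.23, -0.14 and -0.16, and the 3 sets of points overlap widely.

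Outside the 34 members, 126 further genes of the secretory pathway and of the neighbouring stress branches were compared. TUSC3, NUPR1 and CREB3L1 did not pass the filter, and of the 123 tested 43 were called lower and 24 higher (median -0.05). Over all tested genes 22.1% were called lower and 22.6% higher. Over tested genes at or above the members' median level the shares were 28.2% and 36.1%. The counts by further group are to be read beside these shares, and their difference from them was not tested. Among 22 genes of the translocon and signal peptide processing, 8 were lower and 2 higher (5 higher with scaling by total counts), with a median of -0.06. SEC11A, a catalytic subunit of signal peptidase, went from 179.3 to 145.3 CPM (-0.30, adjusted p = 9.8e-09 by edgeR), and SRPRB, the membrane subunit of the signal recognition particle receptor, from 20.9 to 24.5 CPM (0.23, adjusted p = 0.00527). SRPRB shares exon bases with other genes.

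Among 18 tested genes of N-glycosylation and glycan trimming, 6 were lower and 3 higher (median -0.05), and 5 were higher after removal of GC and length trends. UGGT2, a relative of the folding sensor UGGT1, had the largest fall (20.8 to 16.8 CPM, -0.31, adjusted p = 0.00296 by edgeR), although the CPM of its groups overlapped. MAGT1, an oxidoreductase subunit of the oligosaccharyltransferase, rose from 141.9 to 168.3 CPM (0.25, adjusted p = 2.8e-07 by edgeR). Among 21 other ER oxidoreductases and prolyl isomerases, 9 were lower and 4 higher (median -0.03).

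PDIA5, a member of the disulfide isomerase family, stood at 31.43, 37.35, 30.09 and 32.56 CPM in control and at 20.62, 19.43, 19.87 and 20.82 CPM in ELAPOR1 libraries. Its groups were far apart (log2 fold change -0.70, adjusted p = 4.0e-10 by edgeR). TXNDC11, a thioredoxin-domain protein of the ER membrane, rose from 21.2 to 27.0 CPM (0.35, adjusted p = 8.1e-05 by edgeR). Over its 20 nearest genes the median was 0.347, close to its own value.

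Among 24 other degradation genes, 8 were lower and 5 higher (median -0.08). DERL3, the third derlin, fell from 9.79 to 6.63 CPM (-0.56, adjusted p = 1.2e-04 by edgeR; its exons overlap those of another gene), and FAF2, which helps recruit VCP, rose from 147.8 to 166.7 CPM (0.17, adjusted p = 2.3e-04). Among 19 genes of the COPII coat and of traffic between ER and Golgi, KDEL receptors included, 1 was lower and 6 were higher (median 0.01). These counts hang on single libraries and settings: 2 were lower and 6 higher without control library 1, 4 and 4 without control library 4, 4 and 4 after removal of GC and length trends, and 2 and 6 with upper-quartile scaling. The gene called lower was LMAN1 (220.8 to 182.9 CPM, -0.27, adjusted p = 5.9e-08 by edgeR), a cargo lectin, while MCFD2, its partner in the transport of coagulation factors, had the largest rise (236.5 to 284.8 CPM, 0.27, adjusted p = 1.0e-08 by edgeR).

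The 13 tested genes of the PERK and ATF4 arm, the translation-control branch of the stress response, changed by a median of -0.525 on the log2 scale, with 8 lower and 2 higher. ATF4, its transcription factor, fell from 372.5 to 258.7 CPM (adjusted p = 1.1e-13 by edgeR). CHAC1, a glutathione-degrading target of ATF4, fell from 9.37 to 4.92 CPM (-0.92, adjusted p = 1.2e-07 by edgeR). ATF3, another stress factor, rose from 46.8 to 58.3 CPM (0.32, adjusted p = 3.3e-06 by edgeR), and EIF2AK3, which encodes PERK itself, did not pass the test (-0.01, adjusted p = 0.904). Among 6 tested genes that process ATF6 or are related bZIP factors of the ER membrane, 3 were lower and 2 higher, with the largest fall in CREB3L2 (48.9 to 36.7 CPM, -0.42, adjusted p = 2.2e-07 by edgeR) and the largest rise in CREB3 (47.2 to 54.8 CPM, 0.21, adjusted p = 4.0e-04 by edgeR).

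**Figure D5:**
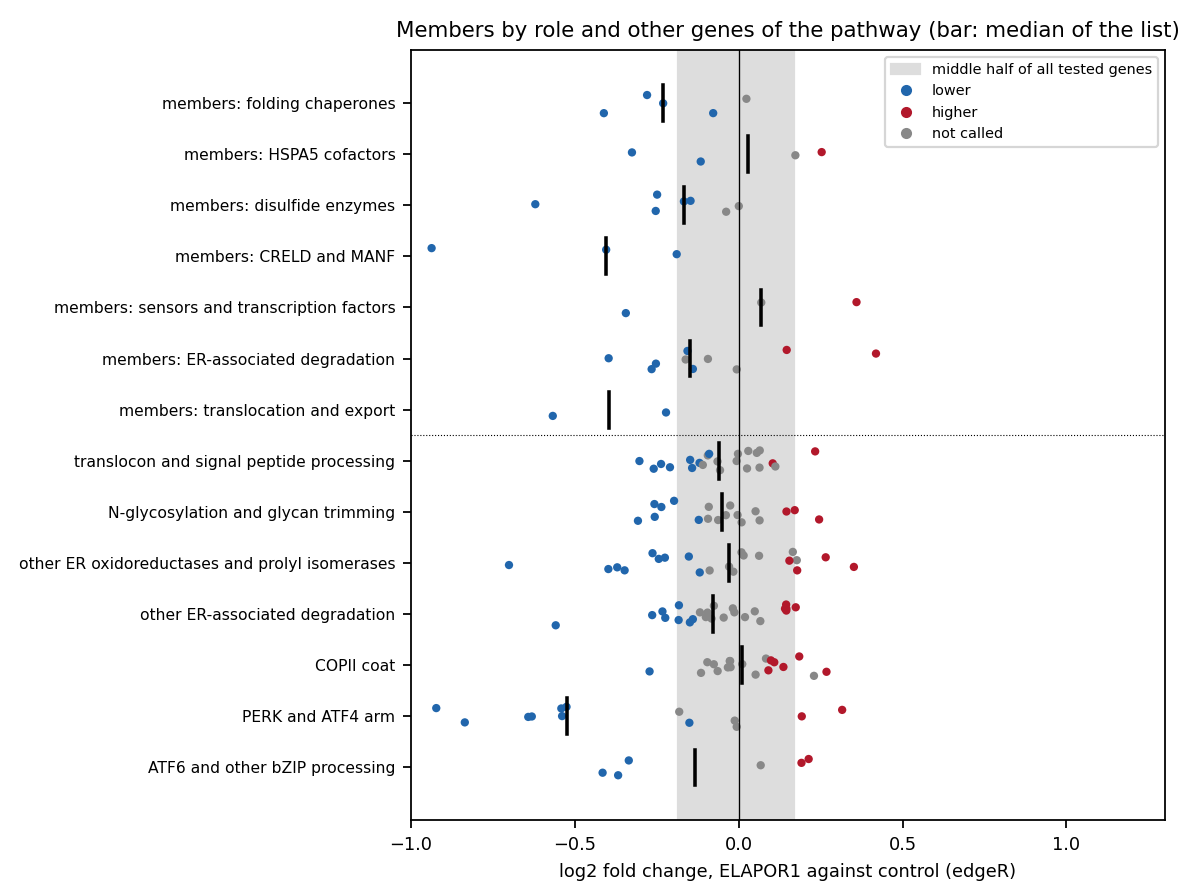
Log2 fold change (edgeR) of each tested gene, in rows for the role groups of the 34 members (above the dotted line) and for the 7 further groups (below it); points are genes, black bars medians, and the grey band the interquartile range of all tested genes, -0.18 to 0.17. The median of the PERK and ATF4 arm (-0.525) lies outside the band, as do those of the folding chaperones (-0.23), of CRELD and MANF (-0.40) and of the translocation and export pair (-0.395).

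Replicate spread limits what can be read from the scarce members. The coefficient of variation of CPM within control libraries had a median of 3.09% over the 34 members, from 0.717% to 16.2%. Within ELAPOR1 libraries it had a median of 3.25%, from 0.596% to 22.7% in ERO1B. ERO1B reached down to 17 counts in a library, and no other member went below 81. Counts were whole numbers in all libraries for 29 members; those of HSPA5, DNAJB11, PDIA3, ATF6 and SYVN1 were in part fractional. Of the 34, 15 share exon bases with another annotated gene.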

How the data were processed

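Total RNA of 8 Panc 10.05 libraries was sequenced on an Illumina NextSeq after TRIzol extraction, per the labels' protocols. The authors deposited 1 table of expected counts per gene, and cutadapt, STAR, RSEM, DESeq2 and the build hg38 are named in the submitters' processing notes, with no versions. Of the nonzero values, 15.0% were not whole, so counts were rounded before testing; strand use is not given in the sources used here. Every column matched a sample title.

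Groups followed the labels, 4 control and 4 ELAPOR1 libraries. Genes were kept with filterByExpr, scaled with TMM and tested two-sided with the robust quasi-likelihood test of edgeR 4.0.16 in R 4.3.3, with Benjamini-Hochberg adjustment over 13860 genes. Calls were made below an adjusted p of 0.05. The standard error is the log2 fold change divided by the square root of F, and intervals are 95%. CPM is per 1e6 counts after TMM. Depth ran from 13765509 to 18128757 counts, and the common biological coefficient of variation was 0.0401. Gene coordinates, exon lengths and overlaps are from GENCODE 29 on GRCh38, and promoter windows from RefSeq (GRCh38.p14). Levels per kb are CPM over the union of exons. Element matches, ratios and levels per kb are descriptions without a test.

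The members, the role groups and the 126 further genes were chosen with earlier results of these data known. All members are accounted for; values by library are given for HSPA5, ERN1, XBP1, ATF6 and, in each role group, for the 2 called members with the largest change and any called member that went against most of its group. EDEM1, and PDIA5 of the further genes, were given by library after their values were seen. Of each further group the called genes with the largest fall and rise at a mean of at least 5 CPM are named. After their values were seen, ATF4, EIF2AK3, the other SEC61 and SEC24 genes and the genes with a response element were named. VCP was set apart from the other degradation genes, also after its values were seen.

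Alternatives were DESeq2 size factors, upper-quartile and total count scaling, the Wald test of DESeq2 1.42.0, limma-voom 3.58.1, a filter of only 1 count, a stricter filter of 10 counts per library, a block on replicate number, leaving out single libraries, removal of GC and length trends (99.8% of tested genes had values), an adjusted p under 0.01 and an edgeR test against a 1.5-fold change. The procedure was tested on simulated data. Plots were drawn with matplotlib 3.10.9.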

Additional observations from a re-analysis of the deposited data

Results flagged for a closer look

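Of 86 groups of 4 values examined (in each group of libraries the CPM of the 34 members, the shares of counts of all members and of the 7 role groups, and the library totals), 4 held a library whose gap to the nearest of the others exceeded Dixon's 95% critical value, where chance gives about 4.3. PDIA6 stood at 260.8 CPM in control library 1, below the other control libraries. ERO1A stood at 204.7 CPM in ELAPOR1 library 3, below the other ELAPOR1 libraries. SYVN1 stood at 93.2 CPM in control library 2, above the other control libraries. The share of counts of the folding chaperones was 0.364% in ELAPOR1 library 4, above the 0.361% of the others. No library was picked out more than once, and the number does not exceed what chance gives.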

How the results depend on the processing

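Setting aside the stricter threshold of 0.01 and the test against a 1.5-fold change, 17 alternatives were run. Over them 21 of the 26 called members kept direction and call in every one, 17 lower and 4 higher; CALR, CRELD2, DNAJB11, ERO1B and SEC61B lost the call in at least 1, and EDEM2 and SDF2L1 gained one. With the threshold of 0.01 included, the count of members lower ran from 18 to 23 and higher from 4 to 5, and of further genes lower from 37 to 47 and higher from 22 to 30. Against a 1.5-fold change only 1 member was called lower and 0 higher, and of the further genes 1 lower and 0 higher, since nearly all changes were smaller than that. At 0.01, 4 members lost the call (CALR, CRELD2, DNAJB11 and ERO1B). The median of the members, -0.16 (-0.1646), was -0.14 (-0.1431) with total counts and -0.21 to -0.15 with single libraries left out, the ends being without control library 1 and without control library 4.

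Reversals were limited to 3 uncalled members near 0. PDIA6 (0.0003) was -0.0011 with DESeq2 size factors and with the DESeq2 Wald test, -0.0081 with upper-quartile scaling, -0.0016 without the filter, -0.0006 with at least 10 counts in every library, and -0.0196 to 0.0121 with single libraries left out. SEL1L (-0.0061) was 0.0152 with total counts and -0.0265 to 0.022 with single libraries left out. CANX (0.0235) was -0.0187 after removal of GC and length trends. The cause of these shifts was not tested.

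Libraries with the same replicate number did not deviate together (correlations 0.0025, -0.0235, 0.0356 and -0.00918), so the numbers were not taken as pairs. With the replicate block 21 members were lower and 4 higher, with a median of -0.16 (-0.163), and CRELD2 was the member that lost its call (edgeR adjusted p = 0.0603); 42 further genes were lower and 23 higher. Depth limits ERO1B, which had as few as 17 counts in a library.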
